A study of Mus musculus with 6 samples.

Results

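The 10 genes described here move and buffer zinc in the acinar cell: the metallothioneins Mt1 and Mt2, the transporters Slc30a1, Slc30a2, Slc30a5 and Slc30a7, which carry zinc out of the cytosol, and Slc39a5, Slc39a7, Slc39a11 and Slc39a14, which carry it in. They were chosen by name from the 55414 genes of the count tables, and all 10 were found. RNA sequencing was done on 6 preparations of adult, untreated mouse pancreatic acinar cells, the cells that make and secrete digestive enzymes. The 3 control preparations had the genotype Pdx1Cre;Trip12+/+ and the 3 knockout preparations Pdx1Cre;Trip12fl/fl, so that both groups carried the Cre recombinase driven by Pdx1, a gene active in the embryonic cells that form the pancreatic epithelium, and differed in the floxed Trip12 allele. Trip12 encodes an E3 ubiquitin ligase. The labels call the samples biological replicates 1 to 3 of each group and do not say whether each came from 1 animal, so p-values measure the spread between these samples.

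Zinc is kept very low as a free ion in the cytosol. Slc39 proteins raise it by uptake across the plasma membrane or by release from organelles, Slc30 proteins lower it by export or by loading vesicles, and metallothioneins bind it through their cysteines. The acinar cell loads zinc into its zymogen granules, which also carry zinc-containing carboxypeptidases, and secretes it into the pancreatic juice. The transcription factor Mtf1 senses zinc and raises Mt1, Mt2 and Slc30a1 through short sites called metal response elements.

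Between knockout and control no change was called for the metallothioneins, and 1 transporter was called lower, Slc30a5, the Golgi transporter that supplies zinc to enzymes made in the secretory pathway. Slc30a5 stood at 0.611 of its control level (adjusted p = 0.0405, edgeR). It was called in 12 of 20 alternative fits, among them 1 of the 6 that left out 1 library. By Xist and Y-linked counts the knockouts were all male and control replicates 2 and 3 female. Slc39a11 stood at 0.659 of its control level, which was not called in the main test (adjusted p = 0.0675, edgeR). It was called in 5 of 20 alternative fits, among them that with the replicate number as a block (adjusted p = 0.0216, edgeR). The 2 genes of the set with the lowest deposited counts, Mt2 and Slc39a7, lie for most of their exonic length under other gene models, and Mt2 could be recovered from the counts per strand.

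The metallothionein messages are shown first because they are the most abundant of the set and because their counting decides what can be said of them. The coding sequences below are those of the GENCODE M21 reference transcripts on GRCm38, with the cysteine codons in capitals.
Mt1: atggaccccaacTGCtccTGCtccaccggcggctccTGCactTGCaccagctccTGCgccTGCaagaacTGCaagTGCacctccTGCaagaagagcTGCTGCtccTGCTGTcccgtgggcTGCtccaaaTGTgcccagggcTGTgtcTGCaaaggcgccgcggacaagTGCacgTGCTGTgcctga
Mt2: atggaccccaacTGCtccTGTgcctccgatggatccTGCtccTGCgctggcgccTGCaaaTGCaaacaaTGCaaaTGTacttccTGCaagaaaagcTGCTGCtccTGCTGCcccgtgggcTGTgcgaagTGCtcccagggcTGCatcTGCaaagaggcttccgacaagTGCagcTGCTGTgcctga
Each reads 61 codons before the stop, of which 20 (32.8%) encode cysteine, and all 20 stand at the same positions in both genes. The coding sequences are identical at 148 of 186 bases (79.6%), and the longest identical run is 20 bases. A read longer than that run within the coding sequence therefore differs between the genes in this reference. The read length is not given in the sources used here.

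The promoter windows of 3 members are shown for the metal response element, because Mt2 and Slc30a1 are textbook targets of Mtf1 and Slc30a5 is the member called lower. They run from 250 to 21 bases before the RefSeq start of the gene on GRCm38.p6, 5′ to 3′ on the strand of the gene, and capitals mark matches to TGCACNC or TGCGCNC on either strand.
Mt2, chr8:94172368-94172597, plus strand: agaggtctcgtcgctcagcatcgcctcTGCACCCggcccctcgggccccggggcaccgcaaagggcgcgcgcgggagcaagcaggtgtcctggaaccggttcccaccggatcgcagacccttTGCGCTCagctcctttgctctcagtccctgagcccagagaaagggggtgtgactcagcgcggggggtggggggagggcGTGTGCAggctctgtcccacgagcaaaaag
Slc30a1, chr1:191906531-191906760, plus strand: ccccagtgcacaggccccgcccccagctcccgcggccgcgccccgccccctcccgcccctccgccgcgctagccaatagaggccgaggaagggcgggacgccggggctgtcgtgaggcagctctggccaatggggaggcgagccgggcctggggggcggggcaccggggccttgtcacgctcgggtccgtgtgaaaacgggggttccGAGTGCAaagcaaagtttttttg
Slc30a5, chr13:100833448-100833677, minus strand: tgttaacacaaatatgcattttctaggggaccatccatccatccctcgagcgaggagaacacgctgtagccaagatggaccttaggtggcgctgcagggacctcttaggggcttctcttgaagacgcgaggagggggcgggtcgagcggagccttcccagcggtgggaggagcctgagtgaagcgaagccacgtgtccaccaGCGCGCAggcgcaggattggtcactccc
Mt2 held 3 matches, a number reached by 1.06% of the 32851 RefSeq promoter windows of that length. Slc30a1 and Slc30a5 held 1 each, and 19.45% of the windows held at least 1. Promoters were matched for 9 of the 10 members, with 11 windows in all. In the remaining windows Slc30a2 held 2 matches, 1 of the 2 windows of Slc39a5 and 1 of the 2 windows of Slc39a11 held 1 each, and none of these letters stood in the windows of Mt1, Slc30a7 and Slc39a7. A match is a description of the sequence and not a measured binding site. Mt1 is also a target of Mtf1, and the place of its window was set by the RefSeq start used. Bases outside the windows were not searched, so a window without a match does not show that the gene lacks the element.

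Before any comparison, the counting of the members was examined. The libraries do not mark strand: the forward orientation held 50.1% to 50.3% of the stranded gene counts in the 6 libraries. Each deposited table gives 1 count per gene without regard to strand, in which a read that lies on 2 genes is given to neither, and 1 count for each orientation. Mt2 had 13, 18 and 10 counts without regard to strand in the controls (replicates 1, 2 and 3), against 19, 16 and 21 in the knockouts. Its 2 orientations together held 10636, 6921 and 8672 counts in control and 12143, 5502 and 17514 in knockout. Over all libraries the unstranded column thus kept 0.158% of the 61388 counts of Mt2.

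**Figure D1:**
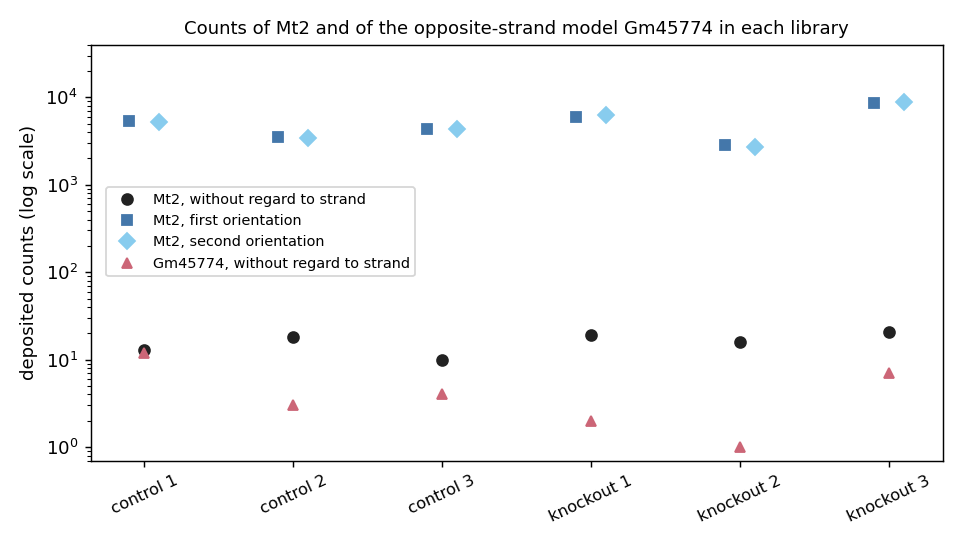
Deposited counts of Mt2 (log scale, y axis) in each of the 6 libraries (x axis), without regard to strand and in each orientation, with the unstranded counts of the opposite-strand model Gm45774. Each orientation of Mt2 holds between 2670 and 8870 counts, while its unstranded count is between 10 and 21 in every library.

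The model that overlaps Mt2 is Gm45774, an antisense model that covers 432 of the 588 exonic bases of Mt2 in the GENCODE annotation of GRCm38. Its count in 1 orientation mirrored that of Mt2 in the other (5220 against 5219 in control replicate 1). Over the 2233 bases of Gm45774 that lie outside Mt2, the unstranded counts were 1 to 12 per library and 29 in all. Without strand, reads of the 2 genes cannot be told apart inside the overlap, so the strand sum of Mt2 includes any Gm45774 reads there. The reads of Mt2 came to between 0.303% and 0.981% of all ambiguous reads of a library. Among 6656 protein-coding genes with at least 1000 strand-summed counts, 28 kept under 1% of them without regard to strand.

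Slc39a7, which releases zinc from the endoplasmic reticulum and Golgi into the cytosol, could not be recovered in this way. It had 20 to 26 counts in control and 36 to 47 in knockout, and its strand sum over all libraries was 196 against 194 without regard to strand. Here the overlapping model, Gm20427, lies on the same strand and covers 2084 of the 2584 exonic bases of Slc39a7, and it was listed at 0 counts in every library, in every column. Reads on the shared bases would be given to neither model, so the counts of Slc39a7 are described here and not taken as its level. Slc30a1 kept 85.6% and Slc30a7 84.4% of their strand sums, with antisense or pseudogene models on the opposite strand. The other 6 members lost at most 1 count.

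Gene counts ran from 31019500 to 34041901 per library. Levels are given as CPM, the count scaled to a common library size, with TMM factors, which correct for composition. Changes are log2 fold changes of knockout over control from edgeR's quasi-likelihood test over 13115 genes, with Benjamini-Hochberg adjustment over all of them, and a gene is called at an adjusted p under 0.05. Trip12 itself had a mean of 25.9 CPM ± 3.36 (SD, n = 3) in the controls against 14.03 CPM ± 0.917 in the knockouts, with no overlap. The acinar markers Cpa1, Cel, Pnlip and 6 others summed to between 364149 and 492981 CPM in the controls, and to between 304623 and 315987 CPM in the knockouts. Xist and 4 Y-linked genes marked control replicates 2 and 3 as female and the other 4 libraries as male, so control replicate 1 is the only male control. When library totals replaced the TMM factors, the median change over all genes rose by 0.41 on the log2 scale, and each direction below is relative to the TMM scaling unless stated.

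Of the 10 members, 1 was called lower and none higher. Over all tested genes 0.945% were called in either direction (0.465% higher, 0.48% lower). At an unadjusted p under 0.05 in edgeR stood 2 members lower and none higher, and of all 13115 genes 1108 higher and 1085 lower. With the replicate number as a block, 2 members were called lower and none higher, against 5.99% of all genes (3.4% higher, 2.58% lower). Groups did not overlap for 3 members, Slc30a5 and Slc39a11, lower in knockout, and Slc39a7, higher, and over all tested genes 22.9% did not overlap. On the strand sums the same counts of members held, 1 called lower without the block, against 1.19% of all genes (0.599% higher, 0.592% lower), and 2 with it, against 5.51% (3.08% higher, 2.44% lower), and 3 without overlap, against 22.7%. The median log2 fold change of the 10 members was -0.22, beside 0.02 over all genes. Counts in the gene lists below, of genes called, without overlap or at an unadjusted p under 0.05, are to be read beside these all-gene values.

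**Figure D2:**
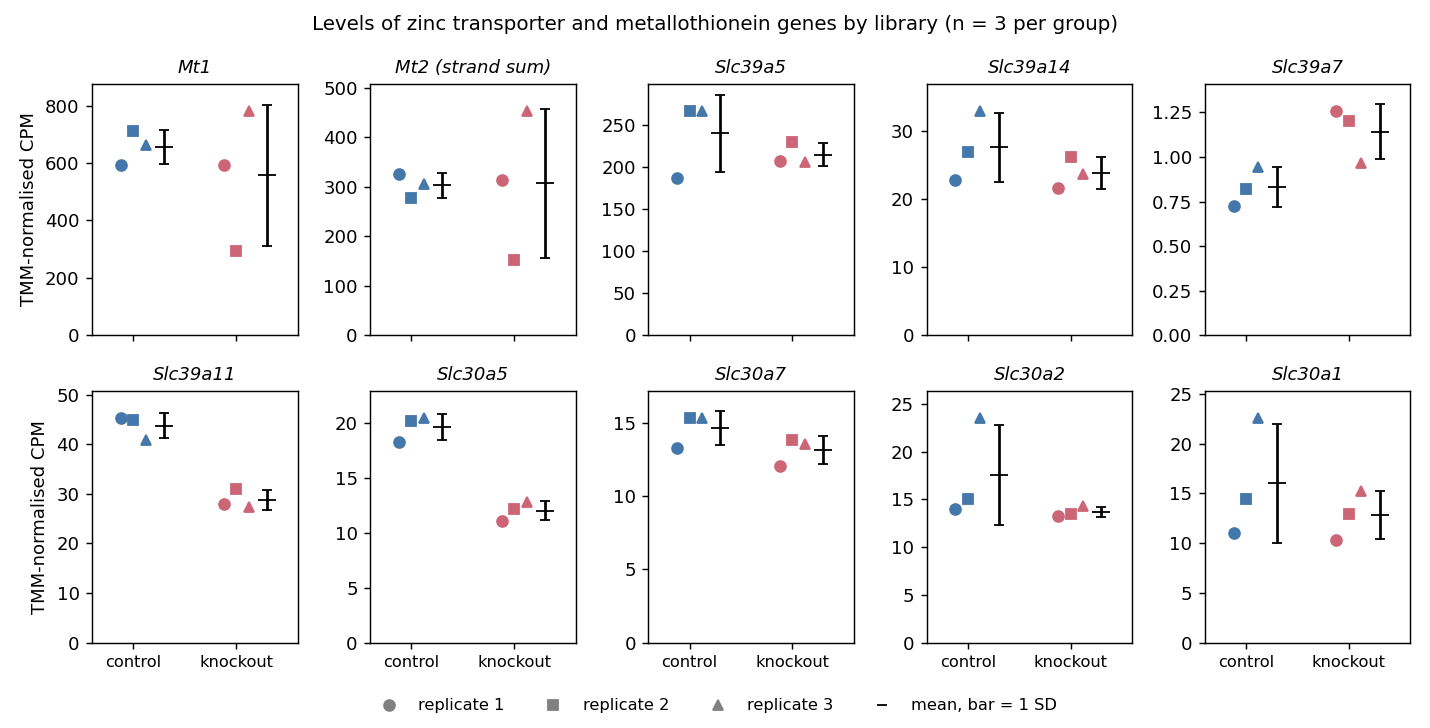
TMM-normalised CPM (y axis, starting at 0) of the 10 genes in each control and knockout library, with marker shapes for replicates 1 to 3 and the mean with 1 SD beside the points. Mt2 is from the sum of the strand orientations, and Slc39a7 is drawn from the few counts it was given. Slc30a5 and Slc39a11 lie lower in all knockout libraries than in any control, and both metallothioneins have their lowest and their highest value among the knockouts.

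The metallothioneins bind several metal ions per molecule and serve as the zinc buffer of the cytosol. Mt1 (ENSMUSG00000031765, chromosome 8) stood at 594, 713 and 662 CPM in the controls, in the order of replicates 1, 2 and 3 used throughout, against 593, 295 and 782 CPM in the knockouts. Knockout replicate 2 was the lowest and knockout replicate 3 the highest of the 6 libraries, with all controls between them. The mean was 656 CPM ± 59.6 (SD, n = 3) against 557 CPM ± 246, a log2 fold change of -0.24 with a 95% interval from -0.98 to 0.51 (adjusted p = 0.787, edgeR). The interval spans changes in either direction.

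Mt2 (ENSMUSG00000031762, chromosome 8), measured from the strand sums, stood at 327, 277 and 305 CPM in the controls, against 314, 152 and 454 CPM in the knockouts. As for Mt1, knockout replicate 2 was lowest and knockout replicate 3 highest. In an edgeR fit on the strand sums of all 14536 genes that passed the filter, the log2 fold change was 0.02 with a 95% interval from -0.82 to 0.86 (adjusted p = 0.988). The strand sums were taken up after the loss in the unstranded column was seen. The unstranded test of Mt2, with a log2 fold change of 0.02 from 97 reads, is not a measurement of the gene.

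The ratio of Mt1 to Mt2 counts was 1.77, 2.51 and 2.10 in the controls, against 1.82, 1.88 and 1.67 in the knockouts. The control order of the 2 genes was opposite, with Mt1 highest and Mt2 lowest in replicate 2. Together Mt1 and Mt2 summed to 929 to 997 CPM in control and to 452, 918 and 1252 CPM in knockout replicates 2, 1 and 3. For this sum the strand-sum counts of Mt2 were scaled by the unstranded library sizes, unlike the CPM of Mt2 above. Set against counts outside the digestive enzymes, a plain total without TMM factors, the mean of the sum was higher in knockout instead of lower. The log2 ratio was 0.10 in place of -0.15, within the spread between replicates.

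Immediate-early and heat-shock genes, which respond to cell isolation, summed to 604, 78.3 and 457 CPM in the controls, against 533, 122 and 766 CPM in the knockouts. The libraries lowest and highest in Mt1 among the knockouts were also lowest and highest in this sum, but control replicate 2, with the lowest sum of all, had the highest Mt1 of the controls. Of the 9 genes of that list that passed the filter none was called without the block in edgeR, with 1 higher at an unadjusted p under 0.05, and 1 was called with it, the heat-shock gene Hspa1b, with 18, 1 and 3 counts in the controls against 64, 31 and 46 in the knockouts (adjusted p = 0.189 without the block and 0.0208 with it, edgeR). Genes known to respond to glucocorticoids, a class of inducers of the metallothioneins, summed to 91.8 to 233 CPM in control and 115 to 192 CPM in knockout. Of the 8 genes on that list, none was called by edgeR with or without the block, with 1 lower at an unadjusted p under 0.05 without it. The part of either list in the spread of the metallothioneins was not tested.

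Slc39a5, which carries zinc across the basolateral membrane of epithelial cells, was the most abundant transporter of the set. It (ENSMUSG00000039878, chromosome 10) stood at 187, 267 and 266 CPM in the controls, against 207, 230 and 206 CPM in the knockouts. The male control was the lowest library and both female controls were the highest, with the knockouts, all male, between them. The log2 fold change was -0.16 with a 95% interval from -0.57 to 0.25 (adjusted p = 0.723, edgeR). With sex as a covariate it was 0.20 (adjusted p = 0.724), the opposite direction, resting on 1 male control.

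Slc39a14 takes up zinc, and also iron and manganese, at the plasma membrane. It (ENSMUSG00000022094, chromosome 14) stood at 22.8, 26.9 and 32.9 CPM in the controls, against 21.6, 26.1 and 23.6 CPM in the knockouts. The groups overlapped, and within each replicate number the knockout was the lower, with differences from -0.48 to -0.04 on the log2 scale. The log2 fold change was -0.21 with a 95% interval from -0.58 to 0.16 (adjusted p = 0.572, edgeR).

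Slc39a11, a member of the family placed mainly in intracellular membranes, differed more. It (ENSMUSG00000041654, chromosome 11) stood at 45.3, 45.0 and 40.8 CPM in the controls, against 28.0, 31.03 and 27.3 CPM in the knockouts. Every knockout library lay below every control. The mean was 43.7 CPM ± 2.53 (SD, n = 3) against 28.8 CPM ± 1.98, a log2 fold change of -0.60 (SE 0.13, 95% interval from -0.89 to -0.31). The adjusted p was 0.0675 in edgeR without the block and 0.0216 with it. It was also called by DESeq2's Wald test (adjusted p = 0.000123), without a filter on low counts (adjusted p = 0.0272) and without control replicate 1 (adjusted p = 0.0481, edgeR). With library totals the log2 fold change was -0.20 (adjusted p = 0.377, edgeR), with all genes shifted up by 0.41 under that scaling.

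The deposited counts of Slc39a7 (ENSMUSG00000024327, chromosome 17) came to 0.724, 0.822 and 0.945 CPM in the controls, against 1.26, 1.20 and 0.966 CPM in the knockouts. The groups did not overlap, by a narrow margin between control replicate 3 and knockout replicate 3. The log2 fold change of these counts was 0.46 with a 95% interval from -0.38 to 1.29 (adjusted p = 0.595, edgeR). They do not show how the whole message of Slc39a7 behaved.

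In the secretory pathway, Slc30a5 pairs with Slc30a6 and Slc30a7 acts with itself to bring zinc into the Golgi for enzymes such as alkaline phosphatase. Slc30a5 (ENSMUSG00000021629, chromosome 13) stood at 18.3, 20.2 and 20.5 CPM in the controls, against 11.1, 12.2 and 12.8 CPM in the knockouts. All 3 knockout libraries lay below all 3 controls, and the male control, at 18.3 CPM, was also above every knockout. The mean was 19.7 CPM ± 1.18 (SD, n = 3) against 12.02 CPM ± 0.875, a log2 fold change of -0.71 (SE 0.12, 95% interval from -0.99 to -0.43) and edgeR gave an adjusted p of 0.0405 without the block and 0.00995 with it.

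Within replicate numbers 1 to 3 the difference of Slc30a5 was -0.73, -0.73 and -0.68 on the log2 scale, a narrow range. An exact two-sided permutation test of its level gave p = 0.1, the lowest value such a permutation of 3 against 3 samples can take. The direction was the same in all 20 alternative fits, of which 12 called it. The call was lost with library totals (log2 fold change -0.29, adjusted p = 0.142, edgeR), in limma-voom (adjusted p = 0.0519) and with sex as a covariate (log2 fold change -0.61, adjusted p = 0.262, edgeR). It was also lost without control replicate 2 or 3 or knockout replicate 1, 2 or 3, with log2 fold changes of -0.69, -0.68, -0.66, -0.72 and -0.76 and adjusted p from 0.116 to 0.198 in edgeR, and kept without control replicate 1 (adjusted p = 0.0211). The acinar marker sum was lower in every knockout library as well, and of its 9 genes 8 had a lower and 1 a higher fitted level. With the block 2 of them were called lower and 1 higher, against 2.58% lower and 3.4% higher of all tested genes. The marker called higher was Rbpjl, a transcription factor of the acinar lineage, at 214 CPM ± 56.8 (SD, n = 3) against 505 CPM ± 145 (adjusted p = 0.0685 without the block and 0.00203 with it, edgeR). Reads mapped to several places made up 26.0% to 28.4% of a control and 21.6% to 24.1% of a knockout library, unmapped reads 12.8% to 13.0% and 9.70% to 11.4%, and reads outside genes 0.893% to 1.32% and 1.90% to 2.18%, none of which overlapped. The part of the acinar markers and of these shares in the difference of Slc30a5, or of any other member, was not tested. In bulk RNA, fewer cells of a type and less RNA per cell cannot be told apart.

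**Figure D3:**
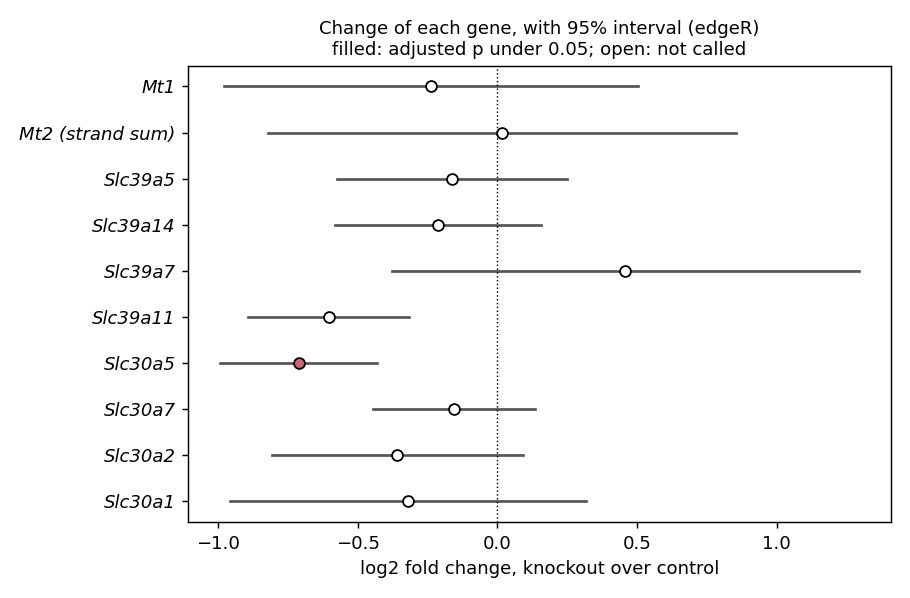
Log2 fold change of knockout over control (x axis) for each of the 10 genes with its 95% interval from edgeR, filled where the adjusted p was under 0.05. Slc30a5 is the only filled point, at -0.71, the intervals of Slc30a5 and Slc39a11 lie below 0, and those of the other 8 span 0.

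Slc30a7 (ENSMUSG00000054414, chromosome 3) stood at 13.3, 15.3 and 15.3 CPM in the controls, against 12.1, 13.8 and 13.5 CPM in the knockouts. The groups overlapped, with each knockout slightly below the control of the same number. Its log2 fold change was -0.15 with a 95% interval from -0.44 to 0.13 (adjusted p = 0.610, edgeR). The strand sums, which include any reads on bases shared with opposite-strand models, gave -0.17. Slc30a6, the partner of Slc30a5, was looked up for that reason after the values of Slc30a5 were seen. Control libraries averaged 5.73 CPM ± 0.446 (SD, n = 3) and knockout libraries 5.36 CPM ± 1.19, a log2 fold change of -0.10 (adjusted p = 0.869, edgeR).

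Slc30a2 loads zinc into vesicles, in acinar cells the zymogen granules. It (ENSMUSG00000028836, chromosome 4) stood at 13.95, 15.1 and 23.6 CPM in the controls, against 13.3, 13.5 and 14.3 CPM in the knockouts. Control replicate 3 stood apart from the other 5 libraries, which lay within 13.3 to 15.1 CPM. The log2 fold change was -0.36 with a 95% interval from -0.81 to 0.09 (adjusted p = 0.413, edgeR), and without control replicate 3 it was -0.08 (adjusted p = 0.863). The tested protein-coding genes outside the set with the pattern most like Slc30a2 over the 6 libraries were Rnf115, Cables1 and Eif3e, with Pearson r of log2 CPM of 0.998, 0.993 and 0.991. All 3 were highest in control replicate 3, and these libraries share their scaling.

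Slc30a1 exports zinc across the plasma membrane. It (ENSMUSG00000037434, chromosome 1) stood at 10.99, 14.4 and 22.6 CPM in the controls, against 10.3, 13.0 and 15.2 CPM in the knockouts. In each group replicate 3 was highest and replicate 1 lowest, and the groups overlapped. The log2 fold change was -0.32 with a 95% interval from -0.96 to 0.32 (adjusted p = 0.629, edgeR), -0.27 on the strand sums and 0.014 without control replicate 3. With sex as a covariate it was 0.22 (adjusted p = 0.841, edgeR).

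For Mt1 the genes of most similar pattern were Cnnm4, Map10 and Exoc6b, with Pearson r of 0.969, 0.966 and 0.961 over the 6 libraries and levels from 0.171 to 6.18 CPM. All 3 were lowest in knockout replicate 2, as Mt1 was. These were taken from 12102 candidates over 6 libraries and are descriptions.

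Levels can be compared between the members only per length. Per kilobase of the principal transcript, Mt1 stood first in control at 1195 CPM per kb ± 109 (SD, n = 3), followed by Mt2 from the strand sums at 593 ± 48.6 and Slc39a5 at 119 ± 22.8. Among 12234 protein-coding genes with at least 60 unstranded counts over all libraries together they ranked 33, 45 and 144 in control. The other genes were ranked from unstranded counts, so any reads they lost to overlaps were not restored as those of Mt2 were. Slc39a11 followed at 16.4 CPM per kb ± 0.949. The values of these 4 genes did not overlap in control.

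Slc30a5, Slc39a14 and Slc30a2 came next in control, at 6.19 ± 0.370, 5.59 ± 1.04 and 5.56 CPM per kb ± 1.66, and did not differ beyond their spread. Slc30a1 held 3.05 ± 1.13 and Slc30a7 1.62 CPM per kb ± 0.131. In knockout Slc30a5, at 3.78 CPM per kb ± 0.275, lay below Slc39a14 (4.83 ± 0.462) and Slc30a2 (4.34 ± 0.166), and every library of the latter pair lay above every library of Slc30a5 there. Gene length depends on the transcript chosen: the principal transcript of Mt1 has 549 bases and its exons together 1246.

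**Figure D4:**
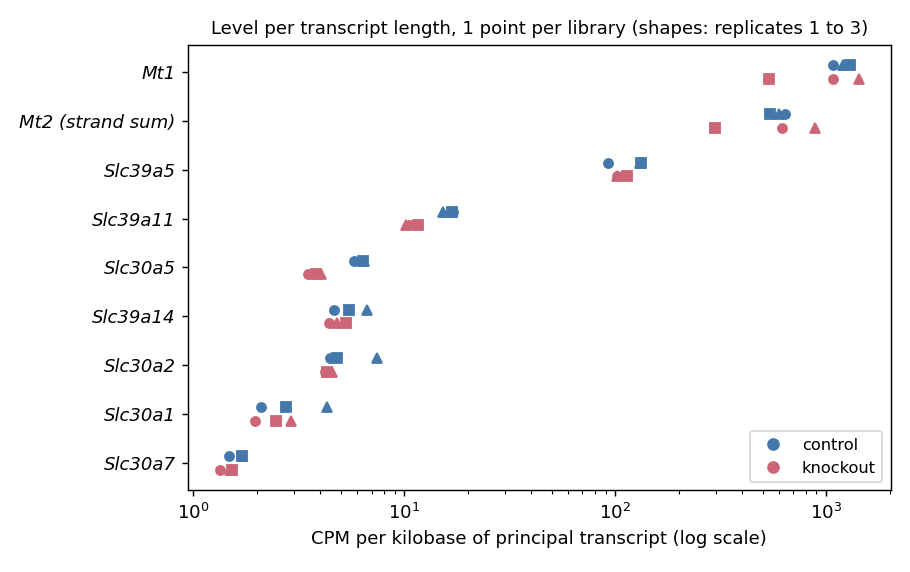
CPM per kilobase of principal transcript (log scale, x axis) for 9 of the 10 genes in each control and knockout library, without Slc39a7. The metallothioneins and Slc39a5 lie at or above 92.2 in every library and the Slc30 transporters at or below 7.47, and the order of the means differs between the groups only in the place of Slc30a5.

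The other 21 genes of zinc handling, a list of the remaining Slc30 and Slc39 family members, Mt3, Mt4, Mtf1, Tmem163 and Gpr39, were examined beside the members. Of these, 14 passed the filter on low counts, with 6 higher and 8 lower and a median log2 fold change of -0.03. None was called without the block, by edgeR or by limma-voom, 1 was higher and 1 lower at an unadjusted p under 0.05, and 1 was called by DESeq2's Wald test. With the block Slc39a4, an uptake transporter of the plasma membrane, was called higher. It stood at 1.32, 0.698 and 0.509 CPM in the controls, against 3.67, 1.51 and 3.19 CPM in the knockouts, from 14 to 137 counts per library. Every knockout lay above every control, with a log2 fold change of 1.71 (SE 0.47) and an adjusted p of 0.129 in edgeR without the block and 0.0151 with it.

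The genes of that list with the highest CPM, not divided by length, were Slc39a9, at 27.5 CPM ± 1.73 (SD, n = 3) in control and 25.5 ± 2.82 in knockout, Slc30a4, at 21.5 ± 3.65 and 17.9 ± 2.83, and Slc30a9, at 21.1 ± 1.11 and 23.2 ± 2.72. For Mtf1, the sensor upstream of the metallothioneins, the unstranded count was 35.7% of the strand sum. Its exons share 721 bases with 1110065P20Rik on the opposite strand, which held 959 unstranded counts of its own. The strand sum of Mtf1 includes any reads of that gene on the shared bases. Unstranded counts gave 3.16 CPM ± 0.671 in control and 3.88 ± 0.298 in knockout (adjusted p = 0.548, edgeR). Strand sums gave 9.35 CPM ± 1.39 in control and 10.1 ± 0.957 in knockout (adjusted p = 0.769, edgeR). Mtf1 and Slc30a8 are named here for their roles, outside the naming rule and after their values were seen. Slc30a8, which loads zinc into the insulin granules of beta cells, held 1.71 CPM ± 0.362 in control and 2.58 ± 1.16 in knockout (adjusted p = 0.508, edgeR). Islet markers summed to 360 to 467 CPM in control and 246 to 915 CPM in knockout, and their part in the level of Slc30a8 was not tested. The summed levels of markers of other cells overlapped between the groups: in control and knockout, duct markers summed to 185 to 228 and 171 to 261 CPM, leukocyte markers to 19.9 to 85.7 and 16.3 to 64.5 CPM, stromal and endothelial markers to 27.6 to 118 and 33.7 to 137 CPM, and adipocyte markers to 3.41 to 8.85 and 4.57 to 17.2 CPM, with Adipoq and Lep at 0 in every library. Single markers did not all overlap: of 7 duct markers 3 were lower and 1 higher in all knockouts than in any control. Over all tested genes 22.9% did not overlap (12% higher, 10.9% lower). None of the markers of these cells or of islets was called by edgeR without the block. At a raw p under 0.05 stood 5 of 7 duct, 3 of 10 islet and 1 of 8 tested leukocyte markers. Over all 13115 tested genes, 1108 were higher and 1085 lower at that raw p. Under the block, 2 duct markers were called higher and 2 lower, and 3 leukocyte markers, 1 islet and 1 adipocyte marker higher. Of all tested genes 5.99% were called under the block (3.4% higher, 2.58% lower).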

How the data were processed

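Poly-A RNA of 3 control and 3 Trip12 knockout acinar preparations was sequenced on Illumina instruments, per the labels' protocols. The deposited tables hold raw counts per gene, and the submitters' processing notes name STAR 2.7.10a and the build GRCm39 (mm39). The annotation used for counting is not given in the sources used here, nor is whether a count is a read or a read pair. Rows outside genes were left out. Symbols, exon lengths and overlaps came from GENCODE M21 on GRCm38, which held 52133 of 55414 identifiers (94.1%), and promoters from RefSeq on GRCm38.p6. Because the builds differ, overlaps describe that annotation.

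The main test was edgeR 4.0.16 in R 4.3.3 on unstranded counts, with filterByExpr, TMM factors and the robust quasi-likelihood F test. Levels are TMM-normalised CPM computed from the counts, with a prior count of 2 for the log2 values used in correlations. Differences within replicate numbers are log2 ratios of CPM without a prior count. The permutation test used log2 CPM with a small constant added. An SE is the log2 fold change divided by the square root of F, and intervals are 95%. DESeq2 1.42.0 and limma 3.58.1 were alternatives. The code was tested on simulated counts. Counting error limits the members with few counts, and reads without molecular identifiers are not independent molecules.

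The members, lists and naming rule were chosen with earlier results of these data known. All members are named. The other lists were other zinc genes, zinc enzymes, other metals, glucocorticoid response, oxidative stress and dissociation, from which genes called with or without the block and up to 3 with the highest CPM could be named. Markers of 6 cell types are given as sums and counts, and Rbpjl was named after its values were seen.

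The labels number replicates 1 to 3 in both groups. Deviations from group means correlated across genes by 0.63, 0.455 and 0.285 in pairs 1 to 3. Between unlike numbers the correlations ran from -0.496 to 0.21. The highest of these, between control replicate 3 and knockout replicate 2, was not far below that of pair 3. On these values the numbers were taken to pair the samples. The pairing was thus inferred from the counts that the block fit tested, and calls made only with the block depend on it. Pairs 2 and 3 set a female control against a male knockout, so within them the block does not separate sex from genotype.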

Additional observations from a re-analysis of the deposited data

How the results depend on the processing

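The number of members called (1) was 0 with library totals, in limma-voom and with the sex covariate, and 2 without a filter, with DESeq2's Wald test, with the replicate block and with the strand sums under the block. Leaving out 1 library gave 0 to 2, with 2 without control replicate 1 and 0 without any other. The number of other zinc genes called (0) was 1 with library totals, without a filter, with DESeq2's Wald test, with the replicate block and with the strand sums under the block, and 0 to 2 without 1 library, with 2 without control replicate 1. The block changed no other member's call. The strand sums were added after seeing the data.

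Library totals reversed Mt1 (0.20), Slc30a1 (0.12), Slc30a2 (0.075), Slc30a7 (0.27), Slc39a5 (0.27) and Slc39a14 (0.22), all under the shift of 0.41 in all genes. The sex covariate reversed Slc30a1 (0.22), Slc39a5 (0.20) and Slc39a14 (0.063), resting on 1 male control. Mt2 was -0.0070 in the first orientation and -0.11 on the strand sums with the block. Leaving out 1 library gave -0.57 to 0.065 for Mt1, -0.16 to 0.39 for the unstranded counts of Mt2 and -0.55 to 0.014 for Slc30a1. None of these reversed values was called, and the cause was not tested.

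Over all genes the number called was 124, and 1519 with library totals, 850 without a filter, 210 where each library had to hold 10 counts or more, 594 with DESeq2, 785 with the block, 21 with the sex covariate, 801 with the strand sums under the block and 20 to 461 without 1 library (461 without control replicate 1, 20 to 88 without any other). With library totals 1442 of the 1519 were higher, against 61 of 124. Summed Slc30a2, Slc30a5 and Slc30a7 had a log2 ratio of -0.42 in CPM and -0.17 against counts outside the digestive enzymes, a plain total without TMM factors. With the enzymes left out of library sizes but TMM factors kept, the median change over all genes shifted by -0.0008. In that fit Slc30a5 had a log2 fold change of -0.71 (adjusted p = 0.041, edgeR).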

Other observations

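Zinc-dependent enzymes of the secretory pathway were looked at beside the transporters. All 5 genes of that list had a lower fitted level in the knockouts (median log2 fold change -0.27, beside 0.02 over all genes), and none was called by edgeR without the block, with 2 lower at a raw p under 0.05. With the block 1 was called, Cpb1, a zinc carboxypeptidase of the zymogen granule, which held 59303 CPM ± 7918 (SD, n = 3) in control and 34907 ± 3986 in knockout (adjusted p = 0.0884 without the block and 0.0321 with it, edgeR). The carboxypeptidase Cpa1 held 55839 CPM ± 8410 and 46393 ± 3072 (adjusted p = 0.499, edgeR).

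Of 8 genes that handle iron and copper, none was called without the block, with 1 higher and 2 lower at an unadjusted p under 0.05 by edgeR's own test. With the block Slc11a2, an importer of iron and other divalent metals, was called higher, from 12.2 CPM ± 0.987 (SD, n = 3) to 19.5 ± 2.91 (log2 fold change 0.68, adjusted p = 0.0713 without the block and 0.0263 with it, edgeR), and every knockout lay above every control. On that list groups did not overlap for 1 gene higher and 2 lower (37.5%), against 22.9% of all tested genes. Among 7 oxidative stress genes none was called without the block, with 2 lower at an unadjusted p under 0.05 by edgeR's own test. With it the subunits of the enzyme that begins glutathione synthesis were called lower, Gclm from 22.4 CPM ± 4.41 to 13.97 ± 1.88 (adjusted p = 0.0151 with the block, edgeR) and Gclc from 12.8 ± 2.25 to 8.27 ± 0.806 (adjusted p = 0.0287 with the block, edgeR).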
